A study of Homo sapiens with 5 samples.

Results

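FOXO1 and FOXO3 are forkhead transcription factors of the FOXO class, and their transcripts were followed here in a microRNA pull-down. All probes whose annotation gives FOXO1 or FOXO3 as the current gene symbol were taken, which gave 3 of the 11184 probes in the deposited table, 1 for FOXO1 and 2 for FOXO3, or 2 of 8127 named genes. All RNA was from HEK293T, an established line of human embryonic kidney origin in which the SV40 large T antigen is expressed. In the pull-down group, 2 arrays, the cells were transfected with 200 pmol of biotin-labelled miR-182-5p duplex, harvested after 24 h, and the microRNA with its bound RNA was collected on streptavidin beads. The mock group, 3 arrays, was mock-transfected and also harvested after 24 h. Its pull-down field reads "none", although the bead protocol is attached to every sample, so an effect of the beads and an effect of the microRNA cannot be told apart. No array holds RNA of the transfected cells from before the beads. Capture with the microRNA and a transcript level changed by the transfection therefore cannot be told apart either. Separate cultures behind the arrays are not stated in the labels, and the spread that the p-values rest on may be technical. Both groups are the same line, with no difference of genotype. In such bulk RNA, fewer cells with a transcript and less of it per cell cannot be told apart.

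FOXO proteins bind DNA through the forkhead domain and switch on genes of cell cycle arrest, cell death, antioxidant defence and autophagy. When insulin or growth factors activate PI3K and AKT, AKT phosphorylates FOXO proteins, which then bind 14-3-3 proteins and leave the nucleus. MicroRNAs guide Argonaute proteins to messenger RNAs that pair with the microRNA's seed, and both FOXO1 and FOXO3 have been reported as targets of miR-182. The comparison asks whether their transcripts were more abundant in RNA collected with miR-182 than in mock RNA.

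The bait is shown with the other arm of its hairpin and with the microRNAs nearest to it in seed, because pairing with transcripts rests largely, though not only, on the seed. Bases 2 to 8 are in capitals, and the sequences are from RefSeq (GRCh38.p14). The gene of miR-182 lies on the minus strand, with the mature 5p arm at chr7:129770447-129770470.
hsa-miR-182-5p: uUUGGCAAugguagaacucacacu
hsa-miR-182-3p: uGGUUCUAgacuugccaacua
hsa-miR-96-5p: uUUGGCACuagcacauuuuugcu
hsa-miR-1271-5p: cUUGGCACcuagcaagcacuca
hsa-miR-183-5p: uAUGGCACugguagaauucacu
Of 2370 mature human microRNAs in that table, miR-182-5p was the 1 that carries uuggcaa at bases 2 to 8. Only miR-96-5p and miR-1271-5p shared bases 2 to 7 with it, and both differ from it at base 8. miR-96-5p comes from the same chromosome as miR-182, at chr7:129774739-129774761 on the minus strand, and matches its first 7 bases. miR-183-5p, at chr7:129774967-129774988 on the minus strand, matches miR-182-5p at 18 positions when both are aligned from the first base. Its seed is not the same, as it differs from that of miR-182-5p at bases 2 and 8. A messenger RNA paired to the full miR-182 seed carries uugccaa. No sequence of the FOXO1 or FOXO3 transcripts was analysed here.

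Both FOXO3 probes and the FOXO1 probe had higher values in the pull-down than in the mock, and all 3 were called. FOXO3 was 2.43-fold higher at the brighter of its probes and 1.64-fold higher at the dimmer one, and FOXO1 was 1.33-fold higher. A probe was called higher or lower where limma, fitted to all 11184 probes, gave a Benjamini-Hochberg adjusted p under 0.05. By the same rule 19.2% of all probes were called higher and 14.2% lower, so calls were common on these arrays. All values are the authors' deposited log2 values and all differences are pull-down minus mock.

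The brighter FOXO3 probe, ILMN_1681703 (Entrez gene 2309, annotated to NM_201559), read 11.98 and 11.73 in the 2 pull-down arrays, against 10.88, 10.56 and 10.28 in the 3 mock arrays. The groups did not overlap, and the lower pull-down array lay 0.85 above the highest mock array. FOXO3 is the FOXO factor best known for stress resistance and for driving cell death genes when survival signals are withdrawn. Its mean was 11.85 ± 0.17 in the pull-down (SD, n = 2) and 10.58 ± 0.30 in the mock (SD, n = 3). The log2 difference was 1.28 (SE 0.20, 95% confidence interval 0.74 to 1.82), with an adjusted p of 0.0137 by limma with Benjamini-Hochberg adjustment. As a fold this is 2.43, with an interval of 1.67 to 3.53. It was the 1 FOXO1 or FOXO3 probe called with a difference of at least 2-fold, as were 4.84% of all probes, and 2.37% of all probes had a larger positive difference. The call ended without pull-down array 1 (difference 1.16, limma Benjamini-Hochberg adjusted p = 0.0715) and without mock array 2 (1.27, adjusted p = 0.0543).

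The dimmer FOXO3 probe, ILMN_1844692, carries the same transcript annotation. It read 10.39 and 10.19 in the pull-down arrays, against 9.80, 9.31 and 9.62 in the mock arrays. Again no mock array reached a pull-down array, with 0.39 between the nearest values of the groups. The mean was 10.29 ± 0.14 in the pull-down (SD, n = 2) and 9.58 ± 0.25 in the mock (SD, n = 3). The log2 difference was 0.71 (SE 0.17, 95% confidence interval 0.26 to 1.16; limma, Benjamini-Hochberg adjusted p = 0.0372), and 10.1% of all probes had a larger one. This call held with mock array 1 left out and ended with any other array left out: the difference was 0.61 without the first pull-down array (limma, Benjamini-Hochberg adjusted p = 0.157) and 0.81 without the second (0.0936). It was 0.58 when the second mock array was dropped (limma, Benjamini-Hochberg adjusted p = 0.0551) and 0.73 when the third was (0.0790).

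Both FOXO3 probes therefore gave the same direction with unequal sizes, 1.28 against 0.71. Within an array, the brighter probe exceeded the dimmer one by 1.58 and 1.54 in the pull-down arrays, against 1.08, 1.25 and 0.66 in the mock arrays. The gap between the probes was wider in each pull-down array than in any mock array. The fitted intervals of the probes overlapped, and the inequality between them was not tested. Where the probes lie in the transcript is not given in the annotation used here. FOXO3B, a gene on another chromosome that arose from FOXO3 and resembles it closely, could share signal with either probe, which was not tested.

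FOXO1, the FOXO factor that mediates much of insulin's control of glucose production in liver, was represented by 1 probe, ILMN_1738816 (Entrez gene 2308, annotated to NM_002015). It read 8.77 and 8.73 in the pull-down arrays, against 8.38, 8.45 and 8.19 in the mock arrays. The pull-down arrays lay within 0.05 of each other and above all mock arrays, with 0.27 between the groups. The mean was 8.75 ± 0.03 in the pull-down (SD, n = 2) and 8.34 ± 0.14 in the mock (SD, n = 3). The log2 difference was 0.41 (SE 0.10, 95% confidence interval 0.15 to 0.66; limma, Benjamini-Hochberg adjusted p = 0.0359), and 20.2% of all probes had a larger one. Values in the table stop near 8, and the FOXO1 mock mean was 0.31 above the mean of the lowest mock values. Differences are compressed near that limit, so the fold of 1.33 may understate the change. The groups also differed at the low end. Within 0.1 of an array's lowest value lay 14.9% and 15.4% of probes in the pull-down arrays, against 19.9%, 26.7% and 23.0% in the mock arrays. A group-wide shift of dim probes could thus also overstate the change at FOXO1, which was not tested. In contrast, the mock means of the FOXO3 probes were 2.55 and 1.55 above the mean of the lowest mock values.

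The FOXO1 call depended on how the arrays were scaled and on which were used. It ended with the arrays centred on their medians (difference 0.37, limma Benjamini-Hochberg adjusted p = 0.0581), with quantile normalization (0.34, 0.0798) and with cyclic loess (0.32, 0.0866). It ended as well when any array but mock array 3 was dropped. Dropping the first or the second pull-down array gave differences of 0.38 and 0.43 (limma, Benjamini-Hochberg adjusted p = 0.141 and 0.112), and dropping the first or the second mock array gave 0.43 and 0.47 (0.0878 and 0.0538). Without mock array 3 the difference was 0.33 and still called. With 1 array left out, 0 to 2 of the 3 FOXO1 and FOXO3 probes were called, and 0 were called without pull-down array 1 or without mock array 2. The direction was positive for each of the 3 probes under every alternative in which it was tested.

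**Figure D1:**
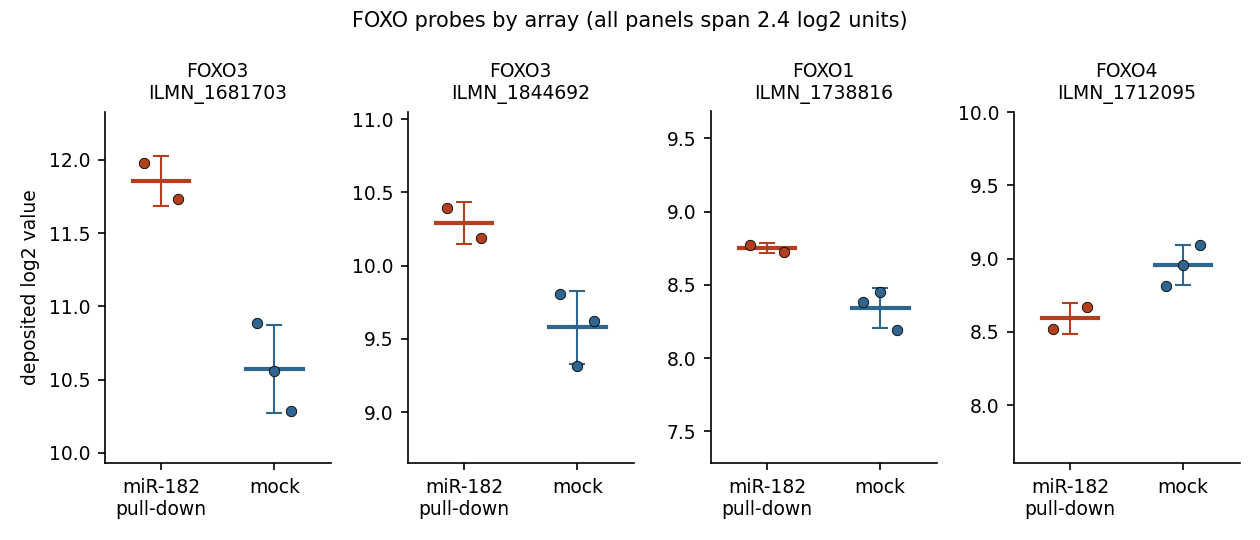
Deposited log2 values of the 2 FOXO3 probes, the FOXO1 probe and the FOXO4 probe, with the 2 miR-182 pull-down arrays left and the 3 mock arrays right in each panel. Points are arrays, bars are means and whiskers are ± 1 SD; all panels span the same range, so that the separation of 1.28 at FOXO3 ILMN_1681703 can be set by eye against 0.71, 0.41 and, in the other direction, -0.36 at FOXO4.

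**Figure D2:**
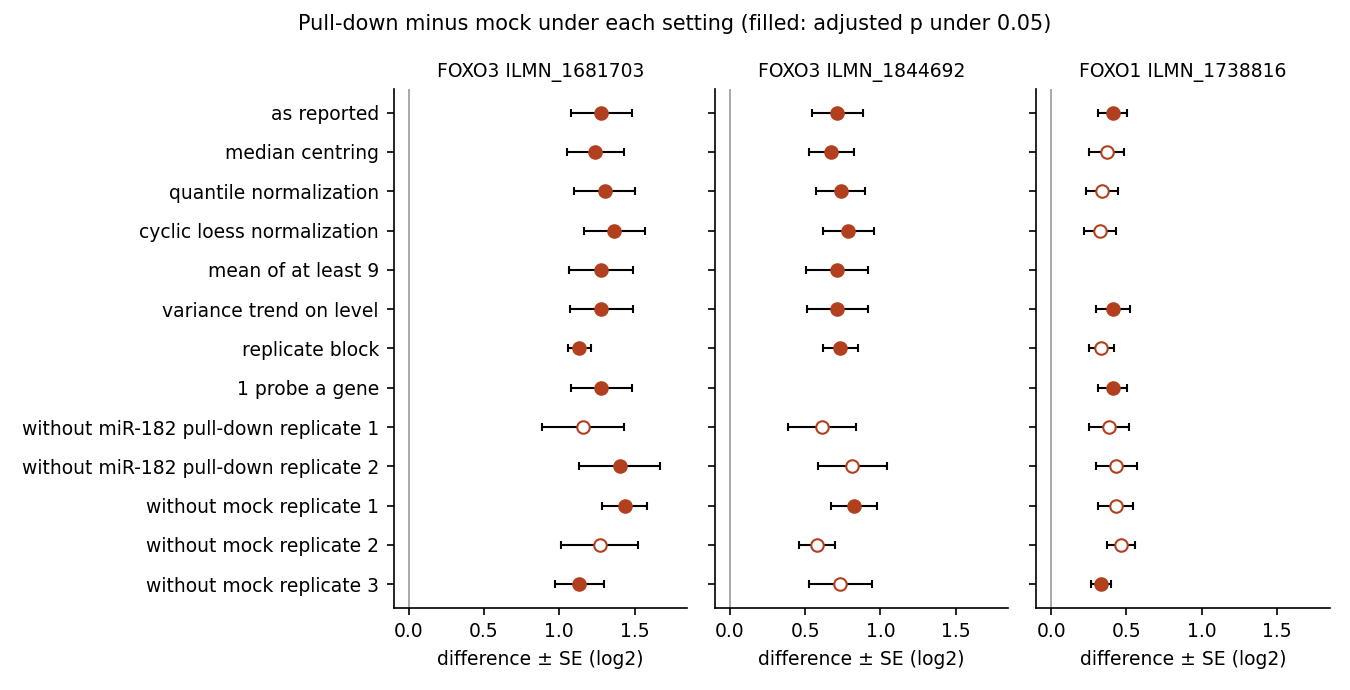
Log2 difference between miR-182 pull-down and mock, with its standard error, for the 3 FOXO1 and FOXO3 probes as reported and under each alternative. Filled points passed a limma Benjamini-Hochberg adjusted p under 0.05; every point lies above 0, and FOXO1 is filled in 4 of its 12 settings.

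Whether FOXO3 changed more than FOXO1 was tested on the ratio of the probes within each array. The brighter FOXO3 probe exceeded the FOXO1 probe by 3.20 and 3.01 in the pull-down arrays, against 2.50, 2.10 and 2.09 in the mock arrays. Both pull-down values were above all mock values, and the log2 change of FOXO3 was larger by 0.87. With 10 ways to split 5 arrays into 2 and 3, the smallest p that this exact permutation test can give is 0.1, and that value was reached (2-sided; 0.2 after Benjamini-Hochberg adjustment over 2 pairs of probes). The dimmer FOXO3 probe exceeded FOXO1 by 1.62 and 1.47 in the pull-down arrays, against 1.42, 0.86 and 1.43 in the mock arrays. Here the change of FOXO3 was larger by 0.30, with p = 0.4 by the exact permutation test (0.4 adjusted). The design cannot reach 0.05 in this test, so neither pair shows unequal or equal change. The FOXO1 probe also lay nearer the lower limit, where differences are compressed, and how much this adds to the excess of FOXO3 was not tested.

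FOXO4, the other FOXO gene with a probe, lay on the other side of 0. FOXO4 shares the AKT-controlled forkhead architecture of FOXO1 and FOXO3. Its probe ILMN_1712095 read 8.52 and 8.67 in the pull-down arrays, against 8.82, 8.95 and 9.09 in the mock arrays, with both pull-down values below all mock values. The log2 difference was -0.36 (SE 0.11, 95% confidence interval -0.64 to -0.08) and was not called (limma, Benjamini-Hochberg adjusted p = 0.0622). It passed with median centring (-0.40, adjusted p = 0.0474) and with quantile normalization (-0.42, adjusted p = 0.0497), by limma with Benjamini-Hochberg adjustment. The difference between FOXO4 and FOXO1 or FOXO3 was not tested. FOXO6 has no probe among those analysed here.

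Non-overlap of the arrays is no rare event in this comparison. All 3 FOXO1 and FOXO3 probes had both pull-down arrays above all mock arrays, and so did 34.1% of all probes; 30.7% of all probes had them below, as FOXO4 did. In the plot of all differences the median probe stood at 0.01. FOXO3 ILMN_1681703 stood in the right tail, and FOXO1 and FOXO4 stood on the shoulders.

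**Figure D3:**
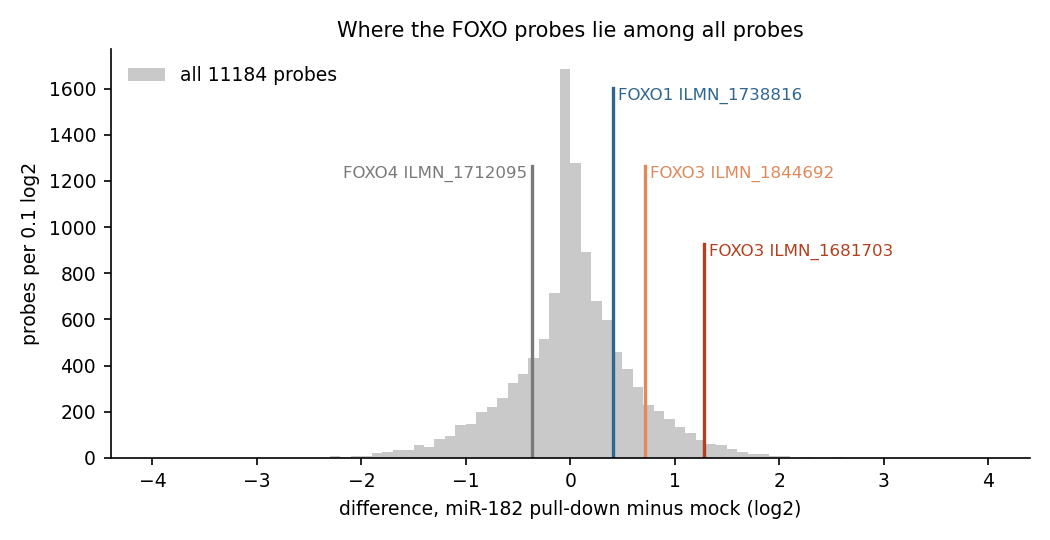
Log2 differences between miR-182 pull-down and mock for all 11184 probes, counted in bins of 0.1. Lines mark FOXO3 at 1.28 and 0.71, FOXO1 at 0.41 and FOXO4 at -0.36; the grey bars show that many probes reach the FOXO1 value (20.2% exceed it) and few the larger FOXO3 value (2.37% exceed it).

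The genes with array profiles most like those of FOXO3 and FOXO1 were found by the root mean square distance over the 5 arrays, after each gene's brightest probe was centred on its own mean. Nearest to FOXO3 ILMN_1681703 were EIF2AK1, the heme-regulated eIF2α kinase (distance 0.05), PDSS2, a subunit of the enzyme that makes the ubiquinone side chain (0.05), CDR2 (0.07), the long noncoding RNA TUG1 (0.08) and FIG4, a phosphoinositide phosphatase (0.08). Their log2 differences ran from 1.19 for EIF2AK1 to 1.31 for PDSS2, around the 1.28 of FOXO3, and all 5 were called. Nearest to FOXO1 were STOM, a membrane protein (0.02), SLC44A2, a choline transporter (0.02), TCEA2, an elongation factor (0.03), ARHGAP44, a GTPase-activating protein (0.04) and NDUFA8, a subunit of respiratory complex I (0.04). Their differences ran from 0.35 for ARHGAP44 to 0.40 for STOM, TCEA2 and NDUFA8. TCEA2 and ARHGAP44 were not called. With 5 arrays in 2 groups, such a distance mostly measures the size of the group difference.

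Besides FOXO1 and FOXO3, 15 of 39 forkhead genes looked for were measured, FOXO4 among them. Here and for the groups that follow, the brightest probe stands for each gene, and over all 8127 genes 20.0% were called higher and 14.7% lower with a median difference of 0.02. In the forkhead family 5 genes rose, 0 fell and 10 were not called, with a median difference of 0.38. Rose and fell here mean called higher or lower in the pull-down than in the mock, whether by capture or by transcript level. FOXN2 was at 10.42 and 9.86 in the pull-down arrays, against 8.67, 8.46 and 8.67 in the mock arrays, a log2 difference of 1.54 (SE 0.19). FOXQ1, whose mock mean was 0.22 above the lowest mock values, was higher by 1.24 (SE 0.11), FOXN3 by 1.02 (SE 0.27), FOXJ3 by 0.62 (SE 0.11) and FOXD4 by 0.38 (SE 0.08). The value for FOXN2 was above that of either FOXO3 probe, an inequality that was not tested. FOXD4 has near-identical paralogs that a probe can share, and its other probe gave a difference that rounds to 0. The FOXD4 mock mean was 0.28 above the lowest mock values. A group-wide shift of dim probes could overstate FOXQ1 and FOXD4, which was not tested. The FOXD4 call ended with the replicate number as a block and without any 1 of the mock arrays. That of FOXJ3 ended without mock array 1 and without mock array 2. The difference of FOXN3 was 0.60 when the first pull-down array was dropped, and its call ended with quantile normalization, with the replicate number as a block and without any 1 of the mock arrays. The forkhead family had 2 higher calls without mock array 1 or mock array 2, and 3 without pull-down array 1.

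Genes of insulin signalling moved in both directions. Of 19 measured genes from the insulin receptor to AKT and mTOR, 5 rose and 5 fell, with a median difference of 0.20. PDPK1, the kinase that activates AKT, was higher by 1.03 (SE 0.15) at its brightest probe and by 0.17 at another. PPP2R2A, a regulatory subunit of the phosphatase PP2A, was higher by 0.77 (SE 0.12), and IRS4, an insulin receptor substrate, by 0.67 (SE 0.18). The IRS4 mock mean was 0.13 above the lowest mock values, where a difference is compressed. IRS4 could also be overstated by a group-wide shift of dim probes, which was not tested. Its difference was 0.44 when the second pull-down array was dropped, and its call was lost in 7 of 11 alternatives. AKT1, the kinase that phosphorylates FOXO proteins, was at 9.91 and 9.90 in the pull-down arrays, against 10.39, 10.70 and 10.92 in the mock arrays, a log2 difference of -0.77 (SE 0.17; -0.26 at its other probe). MLST8, a subunit of both mTOR complexes, differed by -0.94 (SE 0.19) and the GTPase RHEB, an activator of mTOR, by -0.58 (SE 0.11). With 1 array left out 2 to 4 of these genes were called higher and 1 to 4 lower. The count of 2 higher came from dropping the first pull-down or the second mock array, and that of 1 lower from dropping either pull-down array or the second mock array. On all arrays, quantile normalization left 3 called higher, and cyclic loess left 3 higher and 3 lower. The replicate block, in which mock array 3 has no partner and adds nothing to the difference, left 3 higher and 2 lower. The variance trend gave 8 higher, and a minimum mean of 9 left 3 lower.

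Proteins that bind or modify FOXO factors had 8 of 32 measured genes higher and 4 lower, with a median of 0.15. Of 6 measured genes of the 14-3-3 proteins, which hold phosphorylated FOXO in the cytoplasm, 3 rose and 1 fell. YWHAZ was higher by 1.32 (SE 0.20), YWHAG by 0.57 (SE 0.07; -0.16 at its other probe) and YWHAH by 0.53 (SE 0.07), while YWHAQ was lower, at -0.56 (SE 0.08); YWHAG and YWHAH are named to complete this class after their values were seen. SKP2, the F-box protein that targets FOXO1 for degradation, was higher by 1.18 (SE 0.18), with 1.61 and 0.58 at its other probes. The stress kinase MAPK8 (JNK1) was higher by 0.77 (SE 0.13), while its relative MAPK9 (JNK2) was lower, at -0.73 (SE 0.12) and -0.14 at another probe. CTNNB1, the β-catenin gene, whose product binds FOXO proteins, was lower, at -1.33 (SE 0.29) and -1.09 at its other probe. The CTNNB1 call ended with the replicate block and without any 1 of the mock arrays. Leaving out 1 array left 3 to 8 of these genes called higher (3 without mock array 2, 5 without mock array 3) and 1 to 2 lower, below the 4 on all arrays in each case. The replicate block left 5 higher and 1 lower.

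Genes known to be regulated by FOXO factors, some activated and others repressed by them, likewise moved in both directions. In the group for cell cycle arrest and cell death, 2 of 21 measured genes rose and 4 fell, with a median of -0.07, and 4 were higher with the variance trend. The genes that rose were GADD45A (1.29, SE 0.11), a stress sensor, and the cell cycle inhibitor CDKN1A (1.23, SE 0.12), which are also targets of p53. MYC, which FOXO factors repress, was lower (-1.59, SE 0.11), as were the transcriptional regulators CITED2 (-0.85, SE 0.09) and ID1 (-0.59, SE 0.11; -0.04 at its other probe). The death gene BCL2L11, a classical FOXO3 target, read 8.09 and 8.17 in the pull-down arrays, against 8.13, 8.14 and 8.09 in the mock arrays. These values are near the lower limit, where a difference is compressed, and its log2 difference of 0.02 (SE 0.06) was not called. BCL2L11 was singled out after its values were seen.

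In the group for oxidative stress, autophagy and metabolism, 6 of 21 measured genes rose and 3 fell, with a median of 0.02 that turned negative with median centring, quantile normalization and cyclic loess. Thioredoxin (TXN) was higher by 1.15 (SE 0.13), catalase (CAT) by 1.04 (SE 0.13; 0.40 at its other probe) and the damage-binding protein DDB1 by 1.03 (SE 0.21). GPX1, a glutathione peroxidase, was lower (-0.98, SE 0.19), as were TSC22D3 (-0.88, SE 0.21; -0.02 and -0.43 at other probes) and the mitophagy kinase PINK1 (-0.34, SE 0.05). The TSC22D3 call ended with quantile normalization, with cyclic loess, with the replicate block and without any 1 of the mock arrays. With either pull-down array or mock array 2 left out, 1 gene of this group was called lower. Median centring and the variance trend each gave 6 lower calls, and the fit with 1 probe a gene gave 5. The genes named as higher or lower in these groups had limma Benjamini-Hochberg adjusted p-values under 0.05, and the counts stand against 20.0% called higher and 14.7% called lower over all genes. Of the 28 genes that the rule for named genes picked from the lists, 10 kept their calls in every alternative that tested them: FOXN2, FOXQ1, PPP2R2A, YWHAZ, GADD45A, CDKN1A, MYC, CITED2, TXN and CAT. The other 18 kept their direction but lost their calls in 1 to 7 alternatives, AKT1 among them with cyclic loess, with the replicate block and without either pull-down array or mock array 2.

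**Figure D4:**
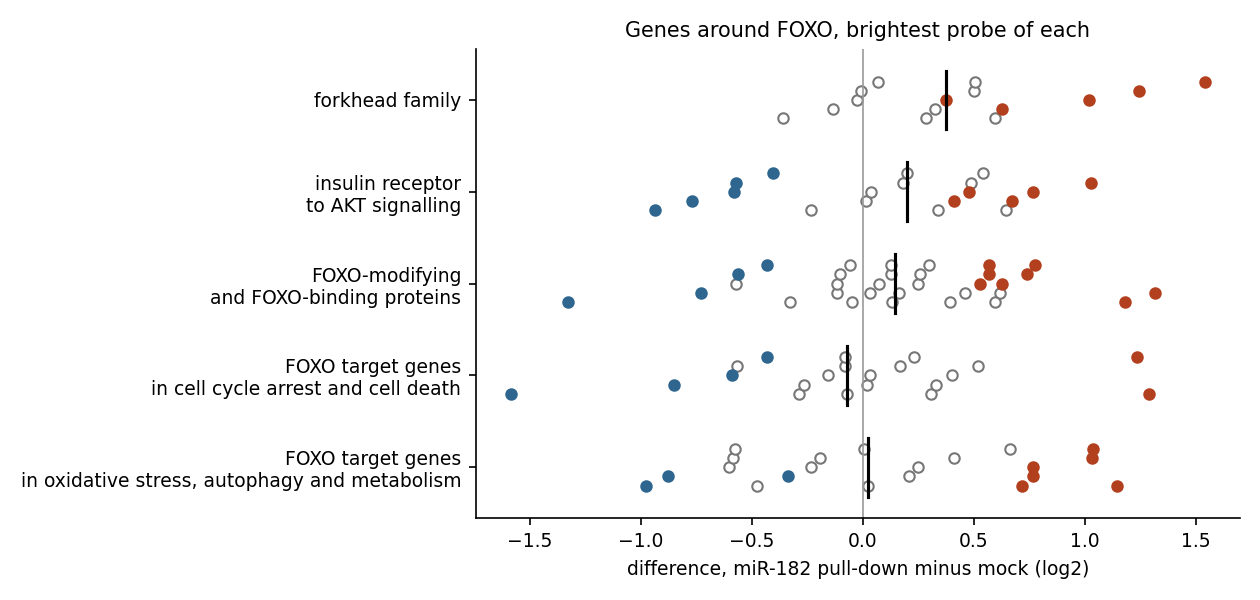
Log2 differences between miR-182 pull-down and mock for the measured genes of 5 groups around FOXO, 1 point per gene. Red points were called higher and blue points lower, open points were not called, and black bars are group medians, which run from -0.07 to 0.38.

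The cells were checked against genes known from HEK293 cells. Of 12 such genes 9 had a probe (PAX2, SIX2 and EYA1 had none). Among the 9, LIN28B was called higher (0.80, SE 0.15), UCHL1 was called lower and 7 were not called, with a median difference of 0.07. Vimentin (VIM) was at 13.04 to 13.76 in all 5 arrays. Of the neurofilament genes, NEFM was at 8.83 to 8.97, while NEFL (8.06 to 8.32) and the keratin gene KRT18 (at most 8.09) were near the lower limit. UCHL1 was at 9.95 and 10.08 in the pull-down arrays, against 12.30, 12.16 and 12.32 in the mock arrays. None of 6 blood cell and 3 hepatocyte markers had a probe among those analysed here, and of 5 fibroblast markers COL1A1 did, at 8.02 to 8.05.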

How the data were processed

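Each of the 5 arrays was read from the authors' deposited table of log2 values for 11184 probes, whose log base was inferred from a range of about 8 to 15.2. Per the submitters' processing notes, the tools included lumi 2.2.1 at a step they do not name. How the background was corrected, the arrays normalized and the probes filtered is not given in the sources used here. Medians were 8.72 to 8.81 per array. A further table with 10 columns of values was not used, because none of its column names matches a sample label. Of the probes, 10040 had 1 symbol in the platform annotation, updated by Entrez identifier, 1 had several and 1143 had none.

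All probes were fitted with limma 3.58.1 in R 4.3.3 (2-sided moderated test on a model with group alone, 3 residual degrees of freedom, Benjamini-Hochberg adjustment over all probes). The fit was also run on simulated arrays with independent noise and few changed probes. That setting differs from these arrays, so it does not measure the error rate of the calls made here. The members and lists were chosen with earlier results of these data known. Lists were described by counts and medians, without a test. Named genes were every FOXO1 and FOXO3 probe, up to 3 called genes per list and direction with the largest difference, every called forkhead gene, and the 5 nearest profiles of FOXO3 and of FOXO1. Alternatives were 3 other scalings, a minimum mean of 9, a variance trend, the replicate number as a block, 1 probe a gene, and leaving out each array. The number of arrays limits the precision.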

Additional observations from a re-analysis of the deposited data

How the results depend on the processing

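The differences of the FOXO1 probe and of both FOXO3 probes stayed positive in every alternative that tested them. With 1 array left out they ran from 1.13 to 1.43 at FOXO3 ILMN_1681703, 0.58 to 0.82 at FOXO3 ILMN_1844692 and 0.33 to 0.47 at FOXO1. FOXO1 was no longer called with median centring (0.37), quantile normalization (0.34), cyclic loess (0.32) or the replicate number as a block (0.33, limma Benjamini-Hochberg adjusted p = 0.0865), and a minimum mean of 9 left it untested; the FOXO3 calls held there. Mock array 3 shares its number with no pull-down array, so it does not enter the difference in the block fit. That fit gave the same FOXO1 difference as dropping mock array 3, and it keeps fewer residual degrees of freedom than the reported fit. Same-numbered arrays deviated together with r = 0.02 and 0.07 over probes, and 2 numbers are too few to show pairing. On all arrays without a block, 2142 probes were called higher and 1584 lower. Of the genes of the 5 lists, 26 were then called higher and 16 lower. The replicate block left 1414 probes higher and 1189 lower, and 21 list genes higher and 9 lower. With a minimum mean of 9, 1202 of the 4885 tested probes were called higher and 1431 lower. Both shares were above the 19.2% and 14.2% over all probes, and both FOXO3 probes belong to this brighter set. With 1 array left out, 0 to 2 of the 3 FOXO1 and FOXO3 probes were called, 1225 to 1712 of all probes higher and 842 to 1441 lower, and 14 to 26 list genes higher and 6 to 11 lower; fewer arrays enter these fits, and a lone pull-down array is assumed to vary like the mock arrays. FOXO3 exceeded FOXO1 in change by 0.77 to 1.01 and by 0.11 to 0.40 at its probes. Among the 3 FOXO1 and FOXO3 probes, signal near the lower limit of about 8 limits FOXO1 most.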
